A study of Aspergillus nidulans and Aspergillus wentii with 48 samples.

Results

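In *A. nidulans*, 97 of 10987 genes differed between the Δ*gfdB* mutant and the THS30 reference strain in the same direction at normal osmolarity and under each of the 3 osmotic stress treatments. Of these 97 genes, 50 had more mRNA in the mutant and 47 had less. They were chosen from the expression values themselves. For each gene and treatment, D was the log2 ratio of the mean RPKM in Δ*gfdB* plus 1 to the mean RPKM in THS30 plus 1, where RPKM is reads per kilobase of gene length and per unit of sequencing depth. A gene was selected when D kept its sign and exceeded 0.6 in absolute value in all 4 treatments. The deleted gene itself, AN6792 (*gfdB*), was left out. Since D in all 4 treatments and all 24 *A. nidulans* libraries chose the genes, their differences between the strains are described here without a test. The added 1 also kept genes of very low expression out of the selection.

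GfdB is an NAD+-dependent glycerol-3-phosphate dehydrogenase. Enzymes of this type reduce dihydroxyacetone phosphate to glycerol-3-phosphate, from which fungi make glycerol and membrane lipids. Glycerol is the main compatible solute that many aspergilli accumulate when the osmolarity of the medium rises.

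The mutant (*pyrG89*; Δ*gfdB*::*AfupyrG*+; *pyroA*+; *veA*+) was set against THS30 (*pyrG89*, *AfupyrG*+; *pyroA*+; *veA*+), so both strains carry the complementing *A. fumigatus pyrG* gene. Mycelia grown in shaken Barratt's minimal broth for 38 h (Δ*gfdB*) or 36 h (THS30) were moved for 0.5 h to fresh broth that was untreated or contained 2 M sorbitol, 1 M NaCl, or both (NaCl + sorbitol). Each strain and treatment had 3 biological replicates. These doses are those of the treatment protocol, whereas the design text of the series gives 1 M sorbitol and 2 M NaCl. Each genotype was represented by 1 strain, so the deletion, any other difference between the strains and the longer culture of the mutant cannot be told apart. The genotype field of 11 Δ*gfdB* samples reads DsodB. Their titles were followed.

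Assigned reads ranged from 11438978 to 22475766 (median 16991358) per Δ*gfdB* library and from 16895701 to 53348830 (median 21910589) per THS30 library. Reads of *gfdB* numbered 0 to 2 per mutant library and 71 to 5194 per THS30 library, and *sodB*, the gene named in the genotype field, had 3900 to 10500 reads per mutant library. The gene before *gfdB*, AN6791, had a D of 0.73, 0.32, 0.08 and 0.21 in untreated, sorbitol, NaCl and NaCl + sorbitol, and the gene after it, AN6793, had 0.03, −0.09, −0.19 and −0.01. One library stood apart from its group. Replicate 1 of untreated Δ*gfdB* correlated with the other replicates at r = 0.979 and 0.982 across genes, against 0.997 between those. Without it the rule gave 51 higher and 55 lower genes, which included 44 of the 50 and 46 of the 47.

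The differences were moderate for most of the genes. Among the 50 higher genes, the median D was 1.06 in untreated cultures, 1.11 with sorbitol, 1.10 with NaCl and 1.16 with NaCl + sorbitol. Among the 47 lower genes it was −0.81, −1.35, −1.26 and −0.96 in the same order. Over the 10866 genes with at least 1 read the medians lay between −0.12 and −0.02. Of the lower genes, 26 had their widest gap with sorbitol and 14 with NaCl, and 21 had their smallest gap in untreated cultures and 16 with NaCl + sorbitol. Without replicate 1 of untreated Δ*gfdB* the untreated median of the lower genes was −1.06, and 15 had their smallest gap in untreated cultures and 24 with NaCl + sorbitol. D was not scaled for library composition. In a fit of read counts with such scaling, the median log2 difference of the lower genes was −0.86, −1.39, −1.42 and −1.05. The fit also does not use the added 1 of D. The order of sorbitol and NaCl thus depends on how the difference is computed. For 16 higher and 10 lower genes, D exceeded 1 in absolute value in all 4 treatments, and for 4 higher and 2 lower genes it exceeded 2.

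**Figure D1:**
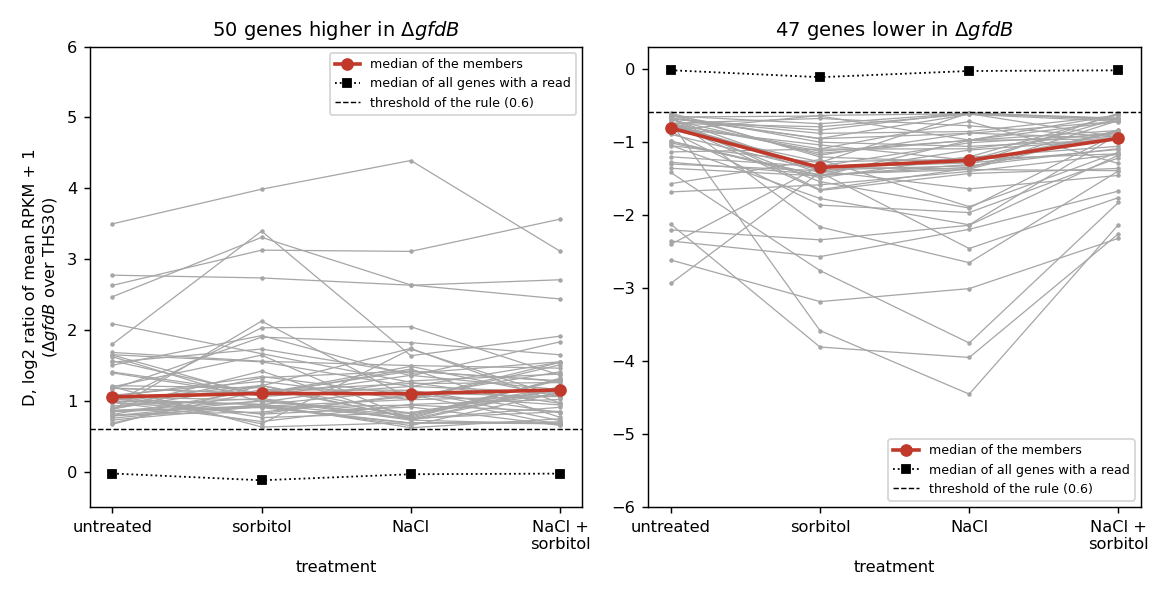
Log2 difference D between Δ*gfdB* and THS30 (y axis) in the 4 treatments (x axis) for the 50 higher (left) and 47 lower genes (right), with 1 grey line per gene, the median in red, the median of all genes with a read as a dotted line and the selection threshold of 0.6 dashed. The median of the higher genes stays between 1.06 and 1.16, whereas that of the lower genes is −0.81 in untreated cultures, or −1.06 without replicate 1 of untreated Δ*gfdB*, and −1.35 with sorbitol. In the fit of read counts scaled for library composition, the lower genes had a median of −1.39 with sorbitol and −1.42 with NaCl.

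Expression levels of the selected genes spread widely. The highest of the 8 group means of a gene was between 4.31 and 1125 RPKM for the higher genes (median 36.5 RPKM) and between 1.69 and 876 RPKM for the lower genes (median 24.7 RPKM). AN2099 had the highest level, with 1741, 859.6 and 774 RPKM in untreated Δ*gfdB*, against 567, 622 and 660.1 RPKM in untreated THS30. For 12 higher and 11 lower genes at least 1 group mean was under 1 RPKM. The sources used here gave a symbol for only 794 of 10988 genes. Just 2 of the 97 had one there, *rodA* (AN8803) and *ivoB* (AN0231). The others are given by their locus name, although some may have names elsewhere.

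The 3 Δ*gfdB* libraries did not overlap the 3 THS30 libraries in any treatment for 43 of the 50 higher and 43 of the 47 lower genes. The same holds for 2.21% of all genes tested in the higher and 3.11% in the lower direction. Taken by treatment, 46, 48, 49 and 49 of the higher genes did not overlap in untreated, sorbitol, NaCl and NaCl + sorbitol, against 10.7%, 14.6%, 13.2% and 16% of all genes. For the lower genes these numbers were 43, 47, 47 and 47, against 21.8%, 43.3%, 18.4% and 26.5% of all genes. In the fit of read counts across all genes, called genes had an adjusted p below 0.05 and a difference of more than 2-fold. Of the 50 higher genes, 36 were called in untreated cultures, 46 with sorbitol, 40 with NaCl and 35 with NaCl + sorbitol. Over all genes tested 1.99%, 2.46%, 1.2% and 1.26% were called higher in those treatments. Of the 47 lower genes, 23, 39, 37 and 27 were called, where 0.579%, 1.83%, 1.05% and 0.716% of all genes were called lower. In all 4 treatments, 23 higher and 16 lower genes were called, against 0.284% and 0.19% of all genes. The selection used the same libraries, so these counts describe it and support nothing.

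Among the higher genes, AN6401 had the widest difference in untreated cultures and with either single stressor. It stood at 118.97, 92.5 and 74.2 RPKM in untreated Δ*gfdB*, against 4.08, 10.04 and 8.43 RPKM in untreated THS30. With sorbitol it had 478, 139 and 181.8 RPKM in Δ*gfdB* and 22.1, 13.7 and 11.7 RPKM in THS30. With NaCl it had 80.8, 161 and 218.3 RPKM in Δ*gfdB* and 7.48, 3.21 and 8.37 RPKM in THS30. Even the lowest mutant library was far above the highest THS30 library in these treatments, although the mutant replicates themselves were far apart with sorbitol and NaCl. With NaCl + sorbitol, AN6401 had 179.6, 351 and 127.7 RPKM in Δ*gfdB*, against 35.5, 18.3 and 19.8 RPKM in THS30. Its D was 3.50, 3.99, 4.39 and 3.11 over the 4 treatments.

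AN1941 followed a similar course at a lower level. In untreated cultures it had 38.7, 22.2 and 19.3 RPKM in Δ*gfdB*, against 3.33, 5.34 and 3.35 RPKM in THS30. With sorbitol it reached 132.5, 42.4 and 51.1 RPKM in Δ*gfdB*, against 8.68, 6.20 and 5.24 RPKM in THS30. The libraries of the strains were apart in all 4 treatments, and D was 2.47, 3.31, 2.64 and 2.44.

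The neighbouring loci, AN8979, AN8980 and AN8981, were all among the higher genes. All of them are annotated with ethanol catabolism, the use of ethanol as a carbon source by way of acetaldehyde, and AN8979 also with threonine catabolism and zinc binding. In untreated cultures AN8979 had 167.2, 328 and 267 RPKM in Δ*gfdB*, against 38.1, 31.2 and 51.2 RPKM in THS30. In medium with sorbitol it had 74.97, 18.3 and 22.3 RPKM in Δ*gfdB*, against 4.02, 3.20 and 3.35 RPKM in THS30. Levels under stress were lower than in untreated cultures in both strains, while the gap between the strains remained. In medium with NaCl it had 31.1, 25.5 and 51.6 RPKM in Δ*gfdB*, against 3.22, 4.17 and 2.48 RPKM in THS30. With NaCl + sorbitol it had 55.0, 83.6 and 28.3 RPKM in Δ*gfdB*, against 5.07, 3.25 and 3.03 RPKM in THS30. D was 2.63, 3.13, 3.11 and 3.57.

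AN8981 was expressed at a much lower level. In untreated cultures it had 15.7, 31.6 and 28.4 RPKM in Δ*gfdB*, against 2.62, 2.06 and 3.83 RPKM in THS30. The values with sorbitol were 16.5, 4.59 and 6.12 RPKM in Δ*gfdB*, against 0.460, 0.606 and 0.464 RPKM in THS30. Its D was nearly constant, at 2.77, 2.74, 2.63 and 2.71. AN8980 was lower still, with 6.13, 7.81 and 5.89 RPKM in untreated Δ*gfdB*, against 1.74, 0.945 and 1.72 RPKM in untreated THS30. In THS30 with sorbitol it had only 7 reads or fewer per library (2, 7 and 1), and at this depth its D (1.62, 0.98, 1.28 and 1.38) is set in part by the added 1. Its libraries did not overlap between the strains in any treatment.

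The higher genes included both symbol-bearing loci, which belong to asexual sporulation. *rodA* encodes the hydrophobin that makes conidia water-repellent, and *ivoB* a phenol oxidase of conidiophore pigmentation. *rodA* had 6.82, 14.1 and 7.49 RPKM in untreated Δ*gfdB*, against 1.205, 2.23 and 2.58 RPKM in untreated THS30. With sorbitol it had 87.2, 9.70 and 13.6 RPKM in Δ*gfdB*, against 3.70, 2.42 and 1.66 RPKM in THS30. Replicate 1 of Δ*gfdB* with sorbitol was far above the other mutant libraries, yet these were still above THS30. D of *rodA* was 1.80, 3.40, 1.64 and 1.91, and without that library 1.82 with sorbitol. *ivoB* had 14.2, 7.43 and 8.83 RPKM in untreated Δ*gfdB*, against 5.27, 4.52 and 5.48 RPKM in untreated THS30. In medium with sorbitol it had 36.3, 10.05 and 10.7 RPKM in Δ*gfdB*, against 3.95, 3.94 and 2.84 RPKM in THS30. D of *ivoB* was 0.87, 2.13, 1.03 and 1.54. Without replicate 1 of the mutant its D was 1.31 with sorbitol, and 0.58 in untreated cultures, where it would not have been selected.

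Of 18 measured genes of conidia and conidiophores, *rodA* and *ivoB* were the only ones selected. Of the 17 tested, these 2 included, 3, 4, 1 and 3 were called higher in Δ*gfdB* in untreated, sorbitol, NaCl and NaCl + sorbitol, and 0 were called lower. Over all genes tested 1.99%, 2.46%, 1.2% and 1.26% were called higher. As *rodA* and *ivoB* were selected for being higher, these counts are not independent of the selection. The spore catalase gene *catA* had a D of 1.33 in untreated cultures, −0.26 with sorbitol, 0.23 with NaCl and 0.80 with NaCl + sorbitol. In the same order, D was 0.82, 0.11, −0.10 and 0.07 for the regulator *flbA*, and 0.14, 0.81, 0.46 and 0.10 for *stuA*. For *medA* it was 0.56, −0.16, −0.52 and −0.29, and for *vosA* 0.26, −0.07, −0.27 and −0.03. The regulator *brlA*, which starts conidiophore development, had a D of 0.51, 0.75, 0.38 and 0.63. Its means were only 1.26, 2.69, 1.82 and 2.35 RPKM in Δ*gfdB*, against 0.589, 1.20, 1.17 and 1.17 RPKM in THS30, so the added 1 lowers its D. Its Δ*gfdB* libraries lay above the THS30 libraries in all 4 treatments, as for 2.21% of all genes tested. The later regulators *abaA* (0.11, −0.22, 0.07 and −0.02) and *wetA* (0.07, −0.16, 0.00 and 0.10) were under 1 RPKM in all groups. The spore pigment gene *yA* had a D of 0.38, −0.04, −0.02 and 0.37. The RPKM summed over the 18 genes was 317 to 388 in untreated Δ*gfdB* and 286 to 337 in untreated THS30. With sorbitol it was 689 to 749 in Δ*gfdB*, above the 619 to 625 of THS30. With NaCl it was 822 to 888 in Δ*gfdB* and 771 to 929.9 in THS30, and with NaCl + sorbitol 407 to 494 in Δ*gfdB* and 397 to 414 in THS30. The sums overlapped between the strains in all treatments but sorbitol. They were set mostly by genes other than *rodA* and *ivoB*. In THS30 with sorbitol, *flbC* had a mean of 159.7 RPKM and *yA* 115.2, against 2.59 for *rodA* and 3.58 for *ivoB*. The sorbitol means of Δ*gfdB* and THS30 were 124.6 and 70.6 RPKM for *stuA*, and 88.6 and 67.4 for *flbD*. For *rodA* they were 36.8 and 2.59, with the mutant mean raised by replicate 1. *medA*, *flbB* and *catA*, among others, had a lower sorbitol mean in the mutant. Their D with sorbitol was −0.16, −0.13 and −0.26, where the median D of all genes with a read was −0.12. The libraries of *medA* and *catA* overlapped there. The part of spore-forming cells in the differences was not tested, and in whole mycelium more cells of a type and more mRNA per cell cannot be told apart.

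AN8611 and AN8612 are also neighbours, and both were higher in the mutant. AN8611, annotated with nucleoside metabolism, had 22.2, 40.0 and 31.4 RPKM in untreated Δ*gfdB*, against 11.2, 9.27 and 12.9 RPKM in untreated THS30. Its D was 1.41, 1.11, 1.42 and 1.28. AN8612 had 15.1, 14.7 and 8.58 RPKM in untreated Δ*gfdB*, against 6.06, 5.42 and 4.99 RPKM in untreated THS30. The values with NaCl were 189, 242 and 494 RPKM in Δ*gfdB*, against 89.8, 121 and 65.3 RPKM in THS30. The replicates of the mutant were widely spread here but did not overlap THS30. D of AN8612 was 1.09, 0.68, 1.73 and 1.06. AN3557, the second selected gene with the nucleoside term, was close to the threshold with a D of 0.85, 0.93, 0.65 and 1.12, and AN0338, annotated with binding of transition metal ions, had 1.01, 1.22, 0.82 and 1.11.

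AN1756 was among the most abundant genes with a steady difference. It had 113, 231 and 165.02 RPKM in untreated Δ*gfdB*, against 55.9, 41.8 and 58.8 RPKM in untreated THS30, and D lay between 1.46 and 1.68. AN1604 was steady at a low level, with 6.64, 4.31 and 4.003 RPKM in untreated Δ*gfdB*, against 1.17, 1.05 and 0.928 RPKM in untreated THS30 (D 1.55, 1.73, 1.39 and 1.55). AN4119 had 55.9, 141.5 and 95.8 RPKM in untreated Δ*gfdB*, against 24.7, 20.1 and 21.7 RPKM in untreated THS30, and its D was 2.09, 1.67, 1.26 and 0.97. A tRNA gene, AN_tE(CUC)6, met the rule on very few reads. In untreated cultures it had 4, 1 and 2 reads in Δ*gfdB* and no read in THS30, and with NaCl 6, 5 and 25 reads in Δ*gfdB* against 6, 6 and 3 reads in THS30. Such genes have near-identical copies among which reads can be split, so its difference is uncertain.

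AN0500 and AN9380 rested on the library that stood apart. AN0500 had 10.3, 2.38 and 1.74 RPKM in untreated Δ*gfdB*, against 1.71, 2.16 and 2.01 RPKM in untreated THS30. AN9380 had 44.7, 14.4 and 15.9 RPKM in untreated Δ*gfdB*, against 15.3, 15.3 and 11.47 RPKM in untreated THS30. The groups overlapped for both. Without replicate 1 of untreated Δ*gfdB* the untreated D of AN0500 was 0.05 instead of 0.97, and that of AN9380 was 0.10 instead of 0.79. AN5437, AN2099, AN10558, *ivoB* and the lower gene AN8915 also fell below the threshold without that library.

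**Figure D2:**
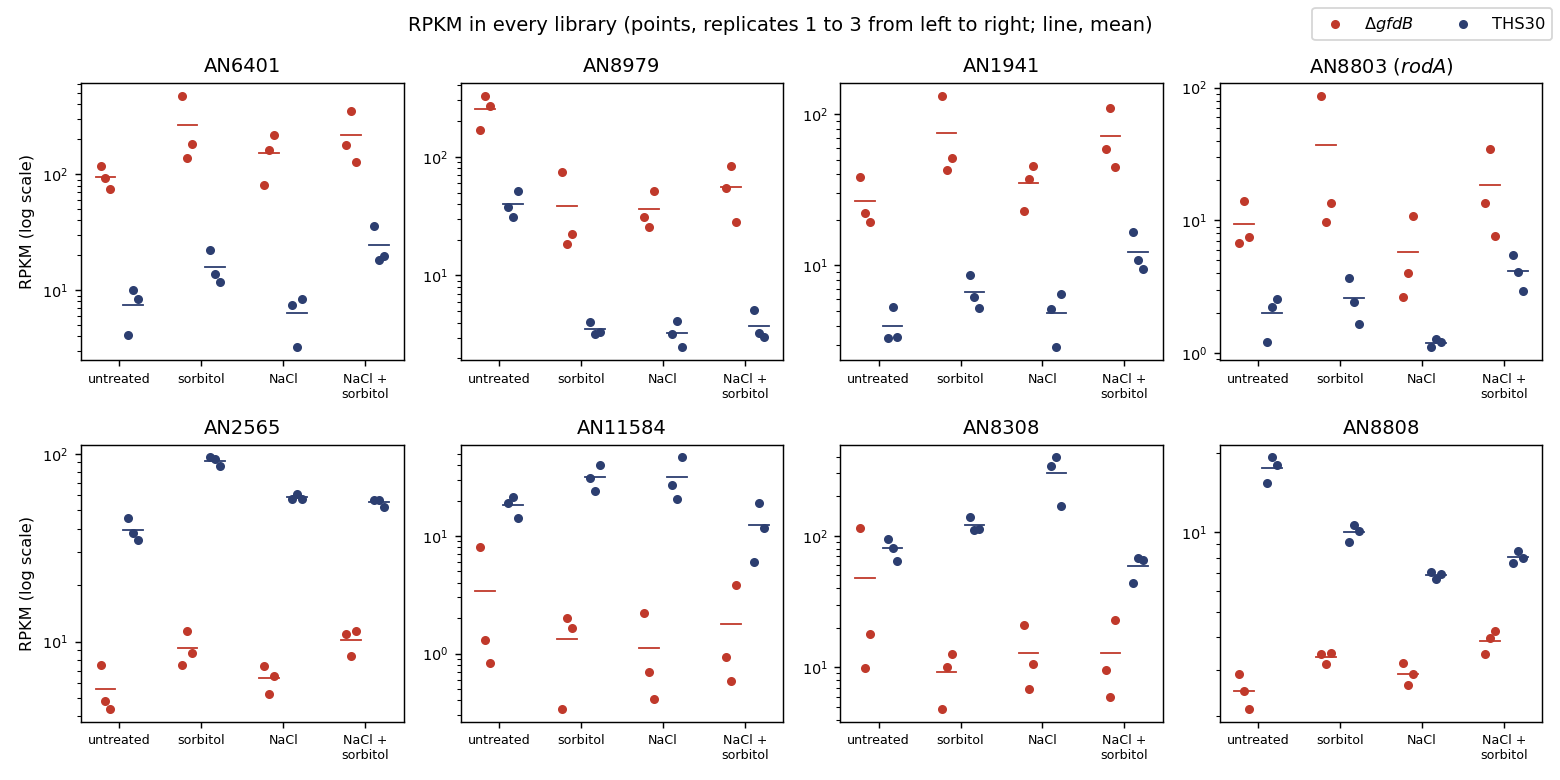
RPKM per library (log axis) of 4 higher genes (AN6401, AN8979, AN1941, *rodA*) and 4 lower genes (AN2565, AN11584, AN8308, AN8808) in the 4 treatments, with Δ*gfdB* in red at the left and THS30 in blue at the right of each treatment. The strains are apart in every treatment except for AN8308 in untreated cultures, where replicate 1 of Δ*gfdB*, at 115.6 RPKM, lies above all THS30 libraries.

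Among the lower genes, AN2565 kept a wide gap in all treatments, and its replicates were close together. In untreated cultures it had 7.54, 4.82 and 4.37 RPKM in Δ*gfdB*, against 45.6, 37.8 and 34.7 RPKM in THS30. The values with sorbitol were 7.49, 11.4 and 8.66 RPKM in Δ*gfdB*, against 95.8, 93.4 and 86.4 RPKM in THS30. With NaCl it had 7.41, 5.27 and 6.58 RPKM in Δ*gfdB*, against 57.5, 61.4 and 57.3 RPKM in THS30. No mutant library came near a THS30 library. With NaCl + sorbitol the values were 10.9, 8.37 and 11.3 RPKM in Δ*gfdB* and 56.5, 56.9 and 51.9 RPKM in THS30. D was −2.62, −3.19, −3.01 and −2.32.

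Some of the selected genes are neighbours in the genome. When genes at most 3 places apart in gene order were joined, 25 of the 47 lower and 10 of the 50 higher genes fell into 12 runs. Order was known for 94 of the 97. The longest run held 11 lower genes, AN7893 to AN7902 with AN11584 between AN7897 and AN7898. AN11583, which lies in the same stretch, was not analysed here. The 3 genes on each side, AN7890 to AN7892 and AN7903 to AN7905, were not selected. AN7890 passed −0.6 with sorbitol (−0.61) and NaCl (−0.68) but not in the other treatments. AN7903 had 0.031, 0.0084, 0.0074 and 0.019 RPKM in Δ*gfdB* over the 4 treatments, against 0.138, 0.074, 0.046 and 0.087 RPKM in THS30. At this level its D (−0.14, −0.09, −0.05 and −0.09) is set by the added 1, so the edge of the run is uncertain there. The other runs of lower genes were AN3518 to AN3520 and the pairs AN7877 and AN7878, AN8808 and AN8809, AN8547 and AN8548, AN2682 and AN2683, and AN0010 and AN0011. Among the higher genes, besides the loci already described, AN11541 with AN7026 and AN10242 with AN1814 were close together. The higher gene AN6421 and the lower gene AN6419 made up the only run with both directions.

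Within the long run, AN7896 is annotated as a DNA-binding transcription factor acting on RNA polymerase II promoters. It had 55.2, 31.3 and 44.4 RPKM in untreated Δ*gfdB*, against 81.6, 70.0 and 58.8 RPKM in untreated THS30. With sorbitol it had 2.81, 3.42 and 2.88 RPKM in Δ*gfdB*, against 10.8, 12.1 and 12.3 RPKM in THS30. In both strains the levels under stress were well below the untreated ones, and D was −0.67, −1.66, −1.36 and −0.71. AN7895 was the most abundant gene of the run, with 217.1, 171 and 205.3 RPKM in untreated Δ*gfdB*, against 370.4, 323 and 311 RPKM in untreated THS30. In medium with NaCl it had 100.5, 72.4 and 56.3 RPKM in Δ*gfdB*, against 335, 240.2 and 293 RPKM in THS30.

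With sorbitol, NaCl and NaCl + sorbitol the widest gap in the run was that of AN11584. It had 8.13, 1.31 and 0.823 RPKM in untreated Δ*gfdB*, against 19.1, 21.6 and 14.2 RPKM in untreated THS30. The values with NaCl were 2.22, 0.701 and 0.409 RPKM in Δ*gfdB*, against 27.4, 20.6 and 46.8 RPKM in THS30. Its D was −2.13, −3.81, −3.95 and −2.26, and −3.23 in untreated cultures without replicate 1 of the mutant. AN7898 resembled it, with 1.45, 0.580 and 0.684 RPKM in Δ*gfdB* with NaCl, against 30.96, 24.7 and 18.4 RPKM in THS30 (D −1.42, −2.76, −3.75 and −1.83). AN7893 had 0.500, 0.355 and 0.435 RPKM in untreated Δ*gfdB*, against 5.83, 6.34 and 4.64 RPKM in untreated THS30 (D −2.21, −2.34, −2.14 and −1.18). AN7897 had 2.35, 1.02 and 1.61 RPKM in untreated Δ*gfdB*, against 12.8, 15.4 and 9.73 RPKM in untreated THS30 (D −2.36, −2.57, −2.20 and −1.68). The remaining genes differed less. D over the 4 treatments was −0.86, −1.87, −1.97 and −1.22 for AN7894, and −1.05, −1.78, −2.14 and −0.90 for AN7899. It was −0.90, −1.39, −1.33 and −1.09 for AN7900, −0.69, −0.89, −0.86 and −0.64 for AN7901, and −1.69, −1.59, −1.41 and −1.17 for AN7902. Only AN7901 of the 11 had an absolute D of less than 1 with both sorbitol and NaCl.

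**Figure D3:**
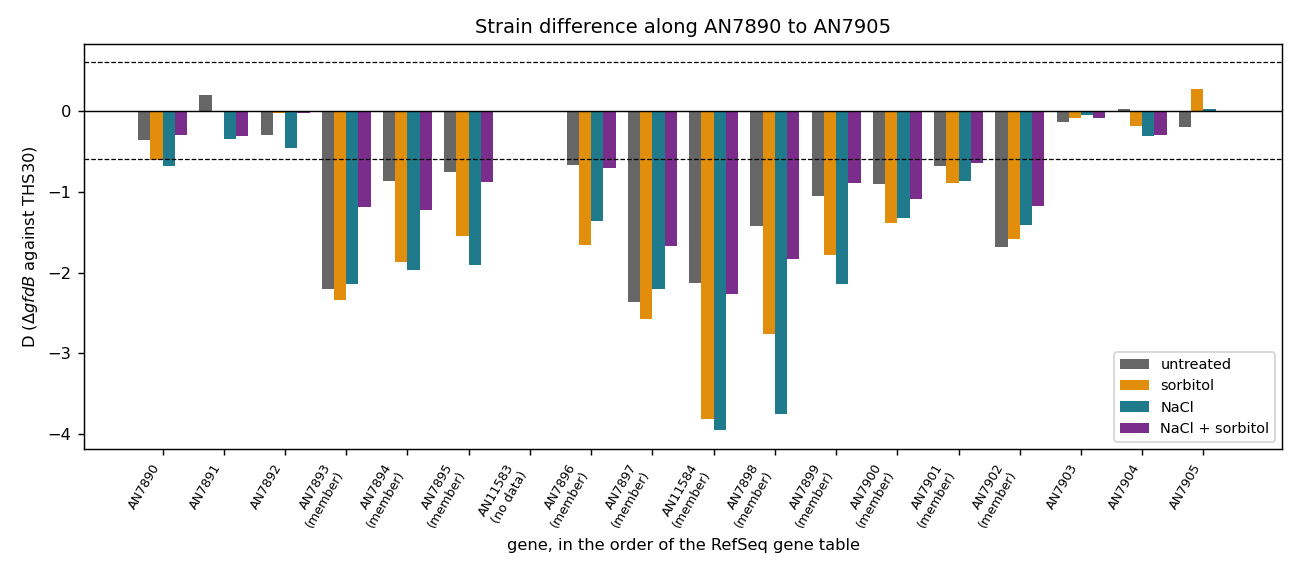
D of each gene in gene order from AN7890 to AN7905 in the 4 treatments, as bars that start at 0, with dashed lines at 0.6 and −0.6. The 11 genes from AN7893 to AN7902 lie below −0.6 in every treatment and the 3 genes on each side do not, but AN7890 does with sorbitol and NaCl. AN7903 had at most 0.138 RPKM in any group, and the added 1 keeps its bars short. AN11583 has no bar because it was not analysed.

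AN8808 and AN8809 formed a pair whose replicates were close together. AN8809 had 2.57, 2.17 and 2.34 RPKM in untreated Δ*gfdB*, against 23.2, 25.7 and 25.4 RPKM in untreated THS30, and D was −2.94, −1.42, −2.46 and −1.77. AN8808 had 2.89, 2.50 and 2.13 RPKM in untreated Δ*gfdB*, against 15.4, 19.3 and 18.03 RPKM in untreated THS30. With NaCl + sorbitol it had 3.44, 3.97 and 4.22 RPKM in Δ*gfdB*, against 7.67, 8.52 and 7.99 RPKM in THS30. Both genes thus differed most in untreated cultures, and D of AN8808 was −2.40, −1.33, −1.02 and −0.89.

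The run AN3518 to AN3520 and the pair AN7877 and AN7878 had wider gaps with sorbitol and with NaCl than in untreated cultures. AN3520 had 14.01, 6.89 and 8.43 RPKM in untreated Δ*gfdB*, against 16.3, 16.6 and 18.3 RPKM in untreated THS30. In medium with sorbitol it had 4.06, 5.60 and 4.56 RPKM in Δ*gfdB*, against 15.2, 17.6 and 18.9 RPKM in THS30. D of AN3520 was −0.74, −1.67, −1.44 and −1.37, and that of AN7877, the most abundant of these, was −0.76, −1.35, −1.38 and −0.85. Without replicate 1 of untreated Δ*gfdB* the untreated D was −1.06 for AN3520 and −1.005 for AN7877. AN8547 (D −1.28, −1.45, −1.38 and −1.40) and AN0005 (D −1.31, −1.40, −1.65 and −1.46) were steadier across the treatments. AN0820 stood out by its level, with 117.1, 156.7 and 166.6 RPKM in untreated Δ*gfdB* against 282, 253 and 258 RPKM in untreated THS30, and 647, 578 and 486 RPKM with NaCl in Δ*gfdB* against 704, 932 and 993 RPKM in THS30.

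AN8308 had the largest single D of the lower genes. With NaCl it had 20.98, 6.85 and 10.7 RPKM in Δ*gfdB*, against 342, 396 and 167.5 RPKM in THS30 (D −4.45). In untreated cultures it had 115.6, 9.96 and 17.8 RPKM in Δ*gfdB*, against 95.5, 80.9 and 64.5 RPKM in THS30 (D −0.74). Replicate 1 of the untreated mutant alone was above THS30, and without it D was −2.45. AN7333 showed the same, with 14.8, 3.05 and 4.81 RPKM in untreated Δ*gfdB*, against 11.96, 14.6 and 10.7 RPKM in untreated THS30. Its untreated D was −0.65, and −1.44 without that library.

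The values on either side of the threshold were close to each other. Just inside it were AN3557, AN3474 and AN10558 on the higher side, with a smallest absolute D of 0.65, 0.63 and 0.62, and AN11081, AN6426 and AN11920 on the lower side at 0.607, 0.606 and 0.603. Just outside were AN4691 (0.598), AN10506 (0.595) and AN5885 (0.591, the *agsA* gene, with D of 0.59, 1.71, 0.65 and 1.16) on the higher side. On the lower side these were AN1718 (0.596), AN7416 (0.554) and AN8429 (0.552). When RPKM was rescaled by TMM factors, which adjust for differences in library composition, the rule gave 70 higher and 36 lower genes instead of 50 and 47, and all 50 higher and 36 of the lower genes were among these.

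The rule was also applied to 2 replicates per group, and the difference was then read in the third. Of 56 higher and 56 lower genes chosen without replicate 1, 46 and 43 had the same sign in replicate 1 in all 4 treatments. For replicate 2 these numbers were 43 of 43 and 23 of 23, and for replicate 3 they were 45 of 47 and 33 of 34. Between 6.99% and 11.48% of all genes were higher, and between 12.9% and 26.4% lower, in all 4 treatments in the single replicates. The replicate 1 libraries include the untreated mutant library that stood apart.

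The change under stress, averaged over both strains, uses another contrast than the selection, so it was tested with edgeR's quasi-likelihood test. With sorbitol, 11 of the 50 higher genes rose and 5 fell, and 5 of the 47 lower genes rose and 7 fell. Over all 9497 genes tested, 15.2% rose and 12.1% fell. With NaCl, 4 higher genes rose and 13 fell, and 3 lower genes rose and 5 fell, against 18.6% and 17.8% of all genes. With NaCl + sorbitol, 12 higher genes rose and 5 fell, and 4 lower genes rose and 2 fell, against 6.45% and 7.72% of all genes. In percent of the higher genes, these were 22% and 10%, 8% and 26%, and 24% and 10%. In percent of the lower genes they were 10.6% and 14.9%, 6.38% and 10.6%, and 8.51% and 4.26%. With NaCl + sorbitol the share of higher genes that rose was above that of all genes, and with NaCl it was below. With sorbitol this order depended on the libraries and the method. Without the replicate 1 libraries 6 higher genes (12%) rose with sorbitol, against 15.96% of all genes, and with limma 4 (8%) rose, against 8.94% of all genes. In THS30 alone 7 (14%) rose with sorbitol, against 15.3% of all genes. Without replicate 1, 7 lower genes rose with NaCl + sorbitol, and without the replicate 3 libraries 2 higher and 9 lower genes fell with NaCl + sorbitol. The median log2 change of the higher genes was −0.04, −0.36 and 0.34 with sorbitol, NaCl and NaCl + sorbitol, that of the lower genes −0.22, −0.11 and 0.14, and that of all genes −0.03, −0.10 and −0.09. In this mean of the strains, no stressor changed 21 of the 50 higher and 27 of the 47 lower genes past the threshold (42% and 57.4%, against 52.5% of all genes). Opposite changes in the strains can cancel in such a mean. In Δ*gfdB* alone 2 lower genes rose and 15 fell with sorbitol, and 3 rose and 13 fell with NaCl. In THS30 alone 6 rose and 6 fell with sorbitol, and 6 rose and 4 fell with NaCl. This difference between the strains was not tested.

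**Figure D4:**
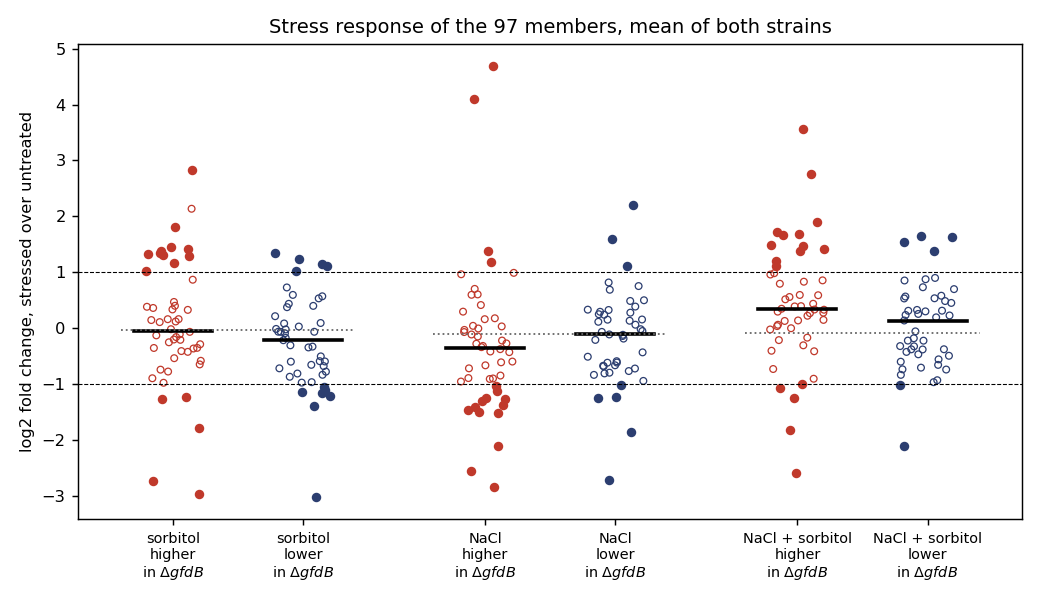
Log2 change under each stressor relative to untreated cultures, averaged over Δ*gfdB* and THS30, with 1 point per gene (filled when called), the median of the genes as a black line, the median of all genes tested dotted and the 2-fold limits dashed. With NaCl 13 of the 50 higher genes were called down and 4 up, and with NaCl + sorbitol 5 were called down and 12 up.

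The ethanol catabolism genes fell under every stressor. AN8979 fell by 2.97 on the log2 scale with sorbitol (SE 0.33, adjusted p = 2.64e-08), by 2.85 with NaCl (SE 0.33, adjusted p = 4.26e-08) and by 2.60 with NaCl + sorbitol (SE 0.32, adjusted p = 2.83e-07) in edgeR's quasi-likelihood test. AN8980 fell by 2.73, 1.51 and 1.83, and AN8981 by 1.79, 1.51 and 1.25. AN4119 also fell under all 3 stressors (by 1.23, 2.12 and 1.01). With NaCl + sorbitol the calls of AN8981 (−0.93) and AN4119 (−0.93) were lost without the replicate 3 libraries, and that of AN4119 (−0.82) also without replicate 2. Of the lower genes, the transcription factor gene AN7896 was the only one to fall under all 3. It fell by 3.03 with sorbitol (SE 0.16, adjusted p = 8.56e-14), by 2.72 with NaCl (SE 0.15, adjusted p = 1.88e-13) and by 2.12 with NaCl + sorbitol (SE 0.15, adjusted p = 4.02e-11) in the same test. Of the other genes of the run, AN7902 fell with sorbitol (by 1.05), AN7900 with NaCl (by 1.26) and AN7897 with NaCl + sorbitol (by 1.02). AN7893 rose with NaCl (log2 change 1.11), and 6 had no call in the mean of the strains. AN7902 lost its call without replicate 1 of untreated Δ*gfdB* (−0.76), without replicate 1 (−0.95) or without replicate 2 (−0.96), and AN7897 without that library (−0.85) or replicate 1 (−0.70). Values below the 2-fold limit were mostly negative, as for AN7895 with −0.84, −0.43 and −0.38.

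Among the higher genes, AN8007 and AN11574 rose under all 3 stressors. The log2 change of AN8007 was 1.02, 1.39 and 1.48, and that of AN11574 was 1.32, 1.19 and 1.41. AN8007 lost its sorbitol call without the replicate 1 libraries (0.80). No gene was called up under one stressor and down under another. AN8612 rose by a log2 change of 2.83 with sorbitol (SE 0.24, adjusted p = 2.76e-10 in edgeR's quasi-likelihood test) and 4.70 with NaCl (SE 0.25, adjusted p = 7.74e-14), and it was not called with NaCl + sorbitol. Its neighbour AN8611 went the other way and fell by 1.38 with NaCl (SE 0.13, adjusted p = 2.48e-09). The other gene with the nucleoside term, AN3557, fell by 1.31 with NaCl, AN0338 by 1.24 and AN7058 by 2.56 (SE 0.21, adjusted p = 1.05e-10). AN7181 had 91.5, 139.8 and 96.2 RPKM with NaCl + sorbitol in Δ*gfdB*, against 59.1, 36.0 and 38.2 RPKM in THS30, and in untreated cultures 11.8, 19.1 and 18.7 RPKM in Δ*gfdB*, against 7.96, 7.72 and 9.84 RPKM in THS30. It rose by a log2 change of 1.81 with sorbitol (SE 0.17, adjusted p = 3.24e-09 in the same test) and 2.75 with NaCl + sorbitol (SE 0.18, adjusted p = 1.58e-11).

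*rodA* rose with sorbitol by a log2 change of 1.30 (SE 0.52, adjusted p = 0.0272 in edgeR's quasi-likelihood test) and with NaCl + sorbitol by 1.21 (SE 0.51, adjusted p = 0.0418). Both calls were lost without the replicate 1 libraries, at 0.13 and 0.93, and the second also without the replicate 2 libraries and without replicate 1 of untreated Δ*gfdB* (1.10 each). AN6401 rose with sorbitol by 1.45 (SE 0.34, adjusted p = 0.000618), a call that was lost without the replicate 1 libraries (log2 change 0.88), and with NaCl + sorbitol by 1.66. AN1941 rose by 1.28 and 1.72 under the same treatments, and by 0.96 with sorbitol, under the 2-fold limit, without the replicate 1 libraries. Among the lower genes, AN0820 rose with NaCl by a log2 change of 2.20 (SE 0.10, adjusted p = 8.67e-15) and with sorbitol by 1.34, and AN2565 rose with sorbitol by 1.15 (SE 0.12, adjusted p = 6.18e-09). With NaCl + sorbitol the lower genes AN5467, AN3518, AN3519 and AN11920 rose by 1.64, 1.64, 1.54 and 1.38.

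Many of the genes were highest in the same replicate of a group. In Δ*gfdB* with NaCl + sorbitol, replicate 2 held the highest RPKM of 35 of the 50 higher genes and of 3 of the 47 lower genes, whereas replicate 3 held that of 39 lower genes. Of all genes tested, 26% were highest in replicate 2 and 35.8% in replicate 3. In Δ*gfdB* with NaCl, replicate 3 held the highest value of 29 higher genes and 1 lower gene, and replicate 1 that of 37 lower genes, where 25.3% and 45.9% of all genes were highest in these replicates. In THS30 with NaCl + sorbitol, replicate 1 held the highest value of 33 higher and 3 lower genes, and replicate 2 that of 37 lower and 7 higher genes. In 6 of the 8 groups, the replicate with the highest value of most higher genes was also the one with the highest value of the fewest lower genes. That replicate had the largest read total of its group in 5 of the 8 groups and the smallest in 2, and the cause of the pattern was not tested. Under stress, AN6401, AN1941, *rodA*, *ivoB*, AN8979 and AN8981 were all highest in the same Δ*gfdB* library. This was replicate 1 with sorbitol, replicate 3 with NaCl and replicate 2 with NaCl + sorbitol. In untreated Δ*gfdB* they split, with AN6401, AN1941 and *ivoB* highest in replicate 1 and *rodA*, AN8979 and AN8981 in replicate 2.

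**Figure D5:**
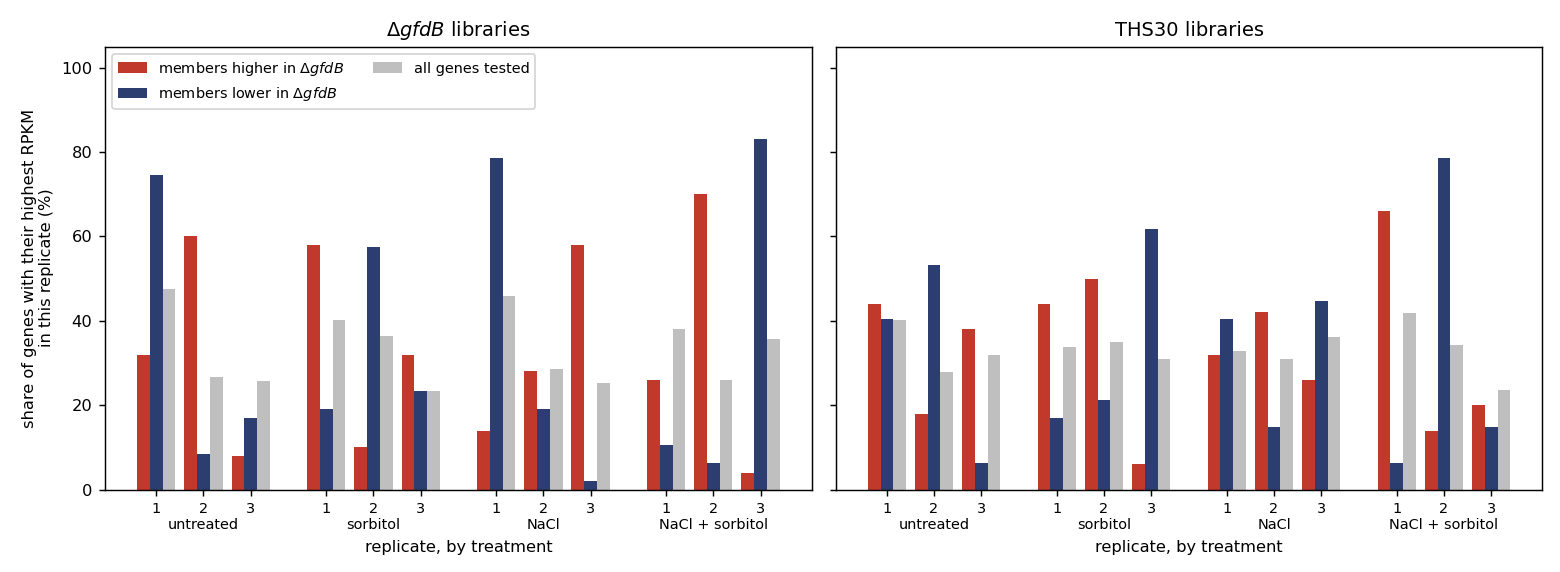
Share of genes (%, y axis) whose highest RPKM within the group was in replicate 1, 2 or 3, for the higher genes (red), the lower genes (blue) and all genes tested (grey), with Δ*gfdB* in the left and THS30 in the right panel. In Δ*gfdB* with NaCl + sorbitol 70.0% of the higher genes were highest in replicate 2 and 83.0% of the lower genes in replicate 3.

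Since 0.883% of all genes were selected, a short list would hold few or none of them. None of the 15 measured osmotic stress genes listed by the study, which include signalling and metabolic genes, was among the 97. Nor was any of the 9 of glycerol metabolism, and the same holds for 35 genes of the oxidative stress response. *gfdA* and *gpp2* are on both the osmotic stress and the glycerol list. No osmotic stress gene was called between the strains in any treatment by edgeR, DESeq2 or limma. At an unadjusted p under 0.05 in edgeR's quasi-likelihood test, 2, 8, 6 and 3 of the 15 differed in untreated, sorbitol, NaCl and NaCl + sorbitol, and with sorbitol 7 and with NaCl 3 had an adjusted p below 0.05 at less than 2-fold. Of the 8 glycerol metabolism genes tested, AN9168 (*mfsA*) alone was called, and only in untreated cultures, where it fell in Δ*gfdB* by 1.01 on the log2 scale (SE 0.27, adjusted p = 0.0130 in edgeR's quasi-likelihood test). Without the replicate 2 or the replicate 3 libraries this call was lost, at −0.98 and −0.73. For AN7193 (*akr1*) and AN1274 (*gcy1*) all Δ*gfdB* libraries lay below the THS30 libraries in all 4 treatments, as for 3.11% of all genes tested. D was −0.50, −0.48, −0.599 and −0.41 for AN7193, and −0.28, −0.599, −0.43 and −0.24 for AN1274. The libraries of the other glycerol genes overlapped in at least 1 treatment. *gfdA*, which encodes the other glycerol-3-phosphate dehydrogenase, had a log2 difference of −0.06, −0.01, 0.03 and −0.12 and was not called. Averaged over the strains, 6, 8 and 1 of the osmotic stress genes and 4, 5 and 1 of the glycerol genes rose with sorbitol, NaCl and NaCl + sorbitol. Markers of sexual tissue and of autolysing mycelium were matched for just 2 of 9 and 3 of 9 names, and none of these genes was selected.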

How the data were processed

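RNA was measured in 48 libraries of 2 aspergilli, and the 24 *A. nidulans* libraries (8 groups of 3) were used. The columns of the 24 *A. wentii* libraries were not used. The authors aligned the reads with HISAT2 2.1.0, counted them per gene and deposited raw counts per gene, and beside them RPKM values that the authors derived from the counts with edgeR. The selection used the deposited RPKM. The counts were fitted with edgeR 4.0.16 (R 4.3.3) in 1 model of the 8 groups, with filterByExpr (9498 genes kept), TMM scaling (factors 0.809 to 1.16) and the quasi-likelihood F-test, 2-sided, with Benjamini-Hochberg adjustment over all genes tested. Called genes had an adjusted p below 0.05 and a change of more than 2-fold. The procedure was tested on simulated data. The replicates are biological replicates per the design text.

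The genes and lists were chosen with earlier results of these data known. Genes were named when they had a symbol, were among the 8 of each direction with the largest smallest absolute D, lay near the threshold, lay in a run of neighbours, or had 1 of the 3 largest called stress changes of their direction. AN2099, AN4119, AN0500, AN9380, AN8308, AN7333, AN8007 and AN11574 were chosen after their values were seen. Gene order and symbols came from a RefSeq gene table, and terms of function from the study. Alternatives were other pseudocounts, thresholds, scalings and filters, DESeq2 1.42.0, limma 3.58.1 on log2(RPKM + 1), a replicate block, single strains, and replicates left out.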

Additional observations from a re-analysis of the deposited data

Results flagged for a closer look

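For 3 genes, every Δ*gfdB* library moved one way under a stressor and every THS30 library the other way, in 4 pairs of gene and stressor. These differences between the strains were not tested, since the selection used the same libraries. The values are mean changes in log2(RPKM + 1) relative to the untreated cultures of the same strain, without TMM scaling. On this scale the median change of all genes, averaged over the strains, was −0.16, −0.36 and −0.22 with sorbitol, NaCl and NaCl + sorbitol. AN1677, a higher gene, changed with sorbitol by 0.48 in Δ*gfdB* and by −0.056 in THS30. This small THS30 change lay above the median of all genes, so its direction depends on the scaling. AN8808, a lower gene, changed with sorbitol by 0.32 in Δ*gfdB* and by −0.75 in THS30, and with NaCl + sorbitol by 0.48 in Δ*gfdB* and by −1.03 in THS30. AN7899, a lower gene of the long run, changed with NaCl by −0.54 in Δ*gfdB* and by 0.47 in THS30.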

How the results depend on the processing

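The selection gave 93 higher and 74 lower genes with a pseudocount of 0.1, 83 higher genes with a threshold of 0.5, and 16 higher and 10 lower genes with a threshold of 1. Leaving out 1 replicate number in all groups gave 43 to 56 higher and 23 to 56 lower genes, the smallest lower count coming without replicate 2. Without replicate 1, 1 of the 97 genes changed sign in some treatment. Without replicate 1 of Δ*gfdB* with sorbitol, an alternative chosen after seeing the data, 45 of the higher and 46 of the lower genes were selected again. Without TMM the median log2 change of all genes shifted by −0.17, −0.36 and −0.20 with sorbitol, NaCl and NaCl + sorbitol, and 2 lower genes rose and 11 fell with sorbitol, 20 higher and 14 lower genes fell with NaCl, and 5 lower genes fell with NaCl + sorbitol. With limma on RPKM, 4 higher and 2 lower genes rose with sorbitol, 2 higher genes rose with NaCl, and with NaCl + sorbitol 7 higher genes rose and 1 lower gene fell. DESeq2 size factors, the DESeq2 Wald test and leaving out replicate 1 of untreated Δ*gfdB* likewise left 1 fallen lower gene with NaCl + sorbitol. In Δ*gfdB* alone 2 lower genes rose and 15 fell with sorbitol, 7 higher genes rose and 13 lower genes fell with NaCl, and 4 lower genes fell with NaCl + sorbitol. In THS30 alone 7 higher genes rose with sorbitol and 6 lower genes with NaCl.

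With 1 replicate number, or replicate 1 of untreated Δ*gfdB*, left out, 6 to 11 higher genes rose with sorbitol, and with NaCl + sorbitol 4 to 7 lower genes rose, 2 to 6 higher genes fell and 1 to 9 lower genes fell. Genes called between the strains then numbered 21 to 39 (higher) and 13 to 33 (lower) in untreated cultures, 22 to 46 (higher) with NaCl, and 13 to 36 (higher) and 9 to 26 (lower) with NaCl + sorbitol. Under the alternatives other than single strains, no called stress change of the selected genes reversed, and 15 to 28 of 28 (sorbitol), 21 to 25 of 25 (NaCl) and 17 to 22 of 23 (NaCl + sorbitol) were called again. In the combined stress the call of AN_tE(CUC)6 was lost without replicate 1. The cause of these shifts was not tested. Same-numbered samples did not deviate together (r −0.27 to 0.157 over 30 pairs, 2 above 0.1), so the numbers were not used to pair the samples. These values cannot tell whether same-numbered cultures were handled together. With a replicate block, 28 of 28, 25 of 25 and 22 of 23 stress calls were kept, and 35, 47, 40 and 33 higher genes were called between the strains.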

Other observations

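Of the selected genes, 6, namely AN6401 and AN6421 (higher) and AN6405, AN6411, AN6419 and AN6426 (lower), lie within 27 genes of each other. This was noticed after the values were seen, and it was not tested.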
